A study of Labeotropheus fuelleborni x Mchenga conophoros and Petrotilapia nigra x Mchenga conophoros and Petrotilapia nigra x Aulonocara baenschi with 10 samples.

Results

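Brains of 2 hybrid male cichlids tested alone (lone) were set against brains of 4 hybrid males that courted over sand beside another male (social sand), 6 of the 10 males sequenced. Malawi cichlids fall into rock-dwelling species, whose males hold territories among rocks, and sand-dwelling species, whose males gather to build sand bowers, and F1 hybrids of both can court in either manner. Males were chosen by their labels alone. Each library is the whole brain of 1 male taken during courtship in a tank that held both rock and sand, with F1 hybrid females. The lone males were a cross of a Labeotropheus fuelleborni sire with a Mchenga conophoros dam (LF_MC) and one of a Maylandia zebra sire with a Mchenga conophoros dam (MZ_MC), and both showed rock-like behavior with no second male present. The social sand males came from a Petrotilapia nigra sire and a Mchenga conophoros dam (Petro_MC), a Petrotilapia nigra sire and an Aulonocara baenschi dam (Petro_AB), a Maylandia zebra sire and a Tramitichromis intermedius dam (MZ_TI), and the LF_MC cross. The series describes males of 1 cross as siblings, so the LF_MC lone and social sand males were brothers, while the MZ_MC lone male had no brother in the series. Lone and social sand males differed at once in company, in the substrate courted over and in part in cross. The sample titles label the social sand males SUB, and the paper reports that the social rock brother was always the larger one. Rank and body size may thus differ too, though for rank the paper states that its data seem at odds with a dominant-subordinate model. It reports that both brothers courted and that their gonadosomatic index did not differ. Company, substrate, cross, rank and body size cannot be told apart here. Loci detected at equal depth differed between the groups as well, as given below, and their part in the results was not tested. The brothers of the social sand males, 4 males that courted over rock in the same tanks (social rock), are quoted only for reference. Values below run LF_MC, MZ_MC for lone males and Petro_MC, Petro_AB, MZ_TI, LF_MC for social sand males.

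Reads were counted per locus, and the files hold raw counts for 32455 loci known by number alone. The lone libraries held 375132 and 457974 counts, and the social sand libraries 335551, 206320, 296983 and 250677. Every social sand total lay below both lone totals (p = 0.0667 by a two-sided exact permutation test, which cannot give less with 2 against 4 libraries). After each library was thinned to 206320 counts, 14242 and 13527 loci kept at least 1 count in lone males, against 11887, 11357, 10860 and 11868 in social sand males. Lone males thus had 2392 more loci on average at equal depth (exact permutation p = 0.0667), with no overlap between the groups. The 10 most abundant loci took 10.4% and 15.9% of the counts in lone males and between 9.08% and 23.3% in social sand males.

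Relative to the rest of each library, lone brains had more RNA of many named neuronal, glial and housekeeping genes than social sand brains. They had less of a smaller group of loci that were on the whole more abundant. Names come only from the study's list for social sand against social rock brothers, so neuronal, glial or housekeeping genes as classes were not tested. Over the 7086 tested genes with no name the median log2 fold change was -0.05. Levels are given as CPM, counts brought to a common library total with TMM scaling, which matches libraries on their typical gene. Of the 7733 genes with enough counts to test, 656 were called, which is 8.48% of those tested. A gene was called where edgeR's quasi-likelihood test, with p adjusted over the 7733 genes, fell under 0.05 and the change was at least 2-fold. In lone males 538 genes were higher (6.96% of those tested) and 118 were lower (1.53%). With libraries scaled by their totals alone, 717 were higher and 39 lower. At an unadjusted p under 0.05 there were 2362 genes. The median fold was 5.36 among genes called higher and 2.77 among genes called lower. In all 656 called genes the lone and social sand males did not overlap, and this was also so of 2098 genes tested that were higher in both lone males (27.1%) and 1209 that were lower in both (15.6%).

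**Figure D1:**
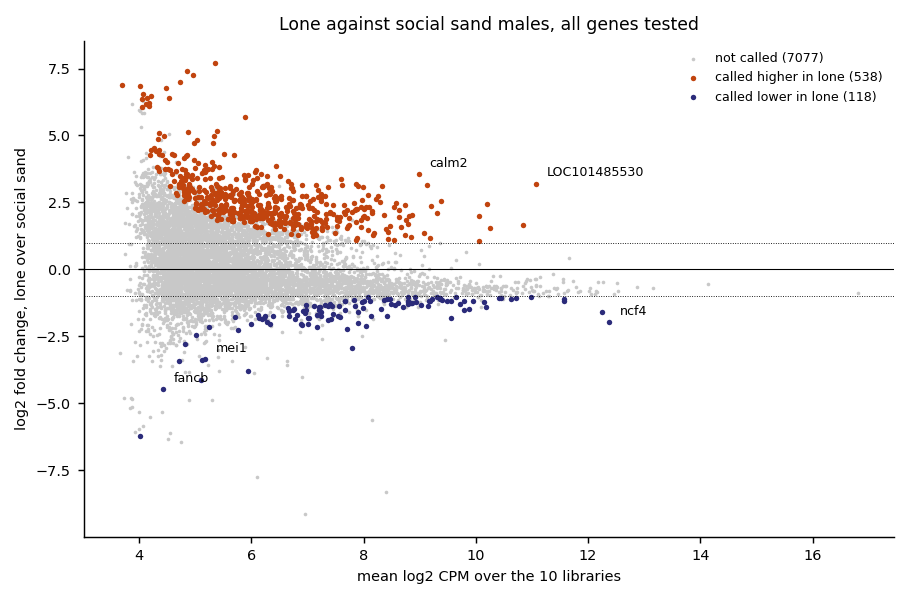
Log2 fold change, lone against social sand males (y axis), by mean log2 CPM over the 10 libraries (x axis), with 1 point for each of the 7733 genes tested and dotted lines at a 2-fold change. Called genes lie mostly above zero at middle levels, and the cloud of abundant genes on the right lies mostly below zero. No direction is read below a mean log2 CPM of 5.

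Most abundant genes had negative fold changes in lone males. At a mean log2 CPM of 9 and above, 12 of 271 genes were higher and 30 were lower, and only 23 of the 271 had a positive log2 fold change (median -0.73). The 1047 genes between 7 and 9 held 107 higher and 54 lower genes with a median of -0.52, and the 3699 genes between 5 and 7 held 329 higher and 30 lower genes with a median of 0.10. Below 5 there were 90 higher and 4 lower among 2716 genes. Such genes can pass the filter through the deeper lone and social rock libraries, so no direction is read from that class. When libraries were scaled by their totals alone, the medians were 0.42, -0.19 and -0.41 from 5 upward, and with libraries thinned to equal depth 0.16, -0.51 and -0.72. Over all genes tested the median log2 fold change was 0.07, 0.40 with totals alone, -0.05 with the 6 lone and social sand libraries alone and -0.14 with a filter at 30 counts. All 118 genes called lower had a negative value when scaled by totals alone too, and 39 of them were still called. As a share of the raw counts, the 538 higher genes took 11.3% and 10.1% in lone males, against 2.02%, 2.29%, 1.37% and 2.22% in social sand males, and the 118 lower genes took 3.35% and 3.05%, against 6.34%, 6.72%, 6.72% and 7.20%. These shares describe the genes the test picked and have no test of their own. In the Petro_MC, Petro_AB, MZ_TI and LF_MC social rock males the higher genes took 5.12%, 4.07%, 6.44% and 12.5%. At equal depth these libraries held 12823, 12482, 12918 and 14181 loci, so the share rose with loci detected. Among social sand males the share did not follow that order. The part of loci detected in the calls was not tested.

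The number of calls rested on both lone males. The calls came to 140 without the LF_MC lone male, 133 without the MZ_MC lone male and 337 without the MZ_TI social sand male, and to between 454 and 647 without any other social sand male. With 1 lone male left, that male is assumed to vary like the other groups. Of the 538 genes called higher, 76 were called in every one of these 6 fits, against 0 of the 118 called lower. Among genes lower in lone males, 8 were called without the LF_MC and 1 without the MZ_MC lone male.

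**Figure D2:**
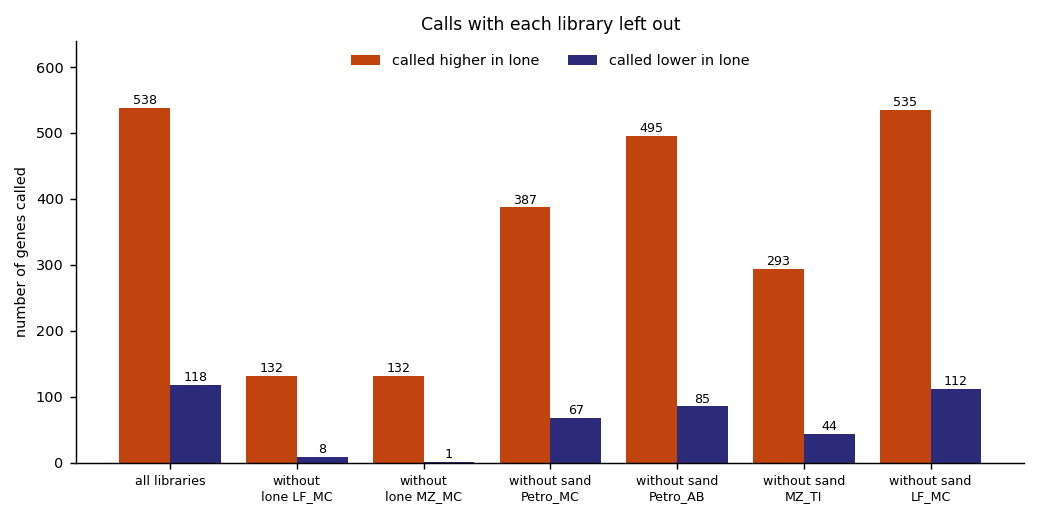
Number of genes called higher and lower in lone males (y axis) with all libraries and with each lone or social sand library left out (x axis). Leaving out either lone male left 132 higher genes, and the lower genes fell to 8 and 1.

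The LF_MC brothers gave a reading in males that had no part in the calls. With all 3 LF_MC males left out, the MZ_MC lone male was set against 3 social sand males, and 240 of 8492 genes were called (2.83%), 196 higher and 44 lower. In the LF_MC brothers, 186 of those 196 genes were higher in the lone male than in its social sand brother, 165 of them by at least 2-fold, with a median log2 difference of 2.05. Of the 44 genes called lower, 32 were lower in the lone brother and 15 by at least 2-fold, with a median of -0.54. Over all 8492 genes 4809 were higher in the lone brother (56.6%) and the median was 0.26. With 1 male on each side the brothers have no replicate, and the lone brother's library was the deeper, at 375132 against 250677 counts.

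**Figure D3:**
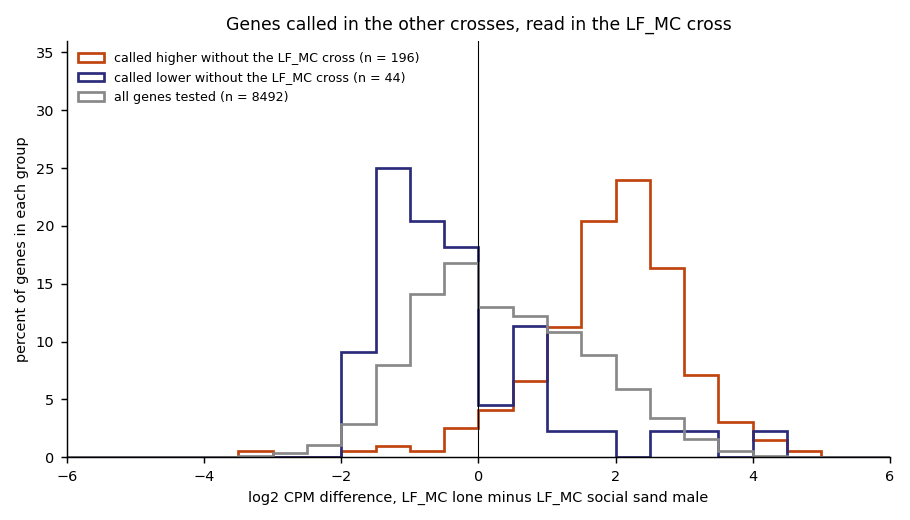
Distribution of the log2 CPM difference between the LF_MC lone male and its LF_MC social sand brother (x axis, in bins of 0.5) as a percent of genes (y axis), for genes called higher or lower in the other crosses and for all genes tested. The genes called higher centre on 2.05 and those called lower on -0.54, beside 0.26 for all genes.

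Lone brains were closer to each other than to any social sand brain. Measured as Euclidean distance over the 7733 genes in log2 CPM, the lone males lay 69.4 apart. The distance was between 117 and 138 from a lone to a social sand male and between 97.2 and 114 among social sand males. The LF_MC lone male lay 126 from its own brother and 118 from the Petro_MC social sand male. Of all 7733 genes tested, 1356 differed by over 2-fold between the lone males. Each social sand library was the shallower of any pair it formed with a lone library, and the part of depth in these distances was not tested.

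Names were at hand for 812 loci, those that the study lists for social sand against social rock brothers. Of these, 647 were tested and 416 were called (64.3%), 388 higher and 28 lower in lone males. That is 60.0% of the named genes called higher, with a median log2 fold change of 2.45, beside -0.05 over genes with no name. All 29 gene lists below are drawn from these named genes, so their counts and medians are to be read against 60.0% and 2.45, and none is shown to stand apart from the other named genes. The share of named genes with no overlap was not taken, so a lack of overlap within a list is no result about that list. The study's list was drawn up with the same 4 social sand brains, so that share and every direction below are not independent evidence. Of the 7086 genes with no name, 240 were called (3.39%), 150 higher and 90 lower. Chosen after their values were seen, 1 unnamed gene is given for each direction. The gene with the smallest p, gene21050, had 61.0 and 111 CPM in lone males, against 3.52, 0, 0 and 4.09 CPM in social sand males (log2 fold change 5.16 ± 0.75 (SE), edgeR adjusted p = 0.00203). Lower in lone males, gene12335 had 390.4 and 481 CPM in lone males, against 1273, 1412, 1289 and 1031 CPM in social sand males (log2 fold change -1.52 ± 0.30 (SE), edgeR adjusted p = 0.00769). The first call held in all 6 fits with a library left out, and the second was lost when either lone male was left out. At 0 to 4.09 CPM in social sand males, gene21050 can pass the filter only through the lone or social rock libraries. Its call is thus not independent of the filter. Loci without a name can be described no further here.

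The named genes of smallest p included a secreted protein, calcium sensors and an RNA-binding protein, all higher in lone males. Ependymin-1 (LOC101485530), a secreted glycoprotein of the fish brain that is known from memory formation in goldfish, had 3865 and 4739 CPM in lone males, against 619, 586, 287 and 377 CPM in social sand males (log2 fold change 3.20 ± 0.37 (SE), edgeR adjusted p = 0.000813). Both lone males stood far above every social sand male. Calmodulin is the main calcium sensor of neurons, and calm2 had 1132 and 1007 CPM in lone males, against 80.9, 71.2, 78.4 and 131 CPM in social sand males (log2 fold change 3.55 ± 0.45 (SE), edgeR adjusted p = 0.000813). The calm3 gene had 551 and 709 CPM in lone males, against 63.3, 98.5, 47.9 and 81.8 CPM in social sand males (log2 fold change 3.12 ± 0.38 (SE), edgeR adjusted p = 0.000813). Another calmodulin gene, LOC101482160, had 442 and 338 CPM in lone males, against 63.3, 126, 65.3 and 102 CPM in social sand males (log2 fold change 2.14 ± 0.38 (SE), edgeR adjusted p = 0.00444). Vertebrate calmodulin genes encode near-identical proteins, and the counting of reads shared between such copies is not given in the sources used here. The cold-inducible RNA-binding protein cirbp had 883 and 1203 CPM in lone males, against 80.9, 142, 78.4 and 176 CPM in social sand males (log2 fold change 3.13 ± 0.40 (SE), edgeR adjusted p = 0.000813). LOC101480315, an orphan receptor of the GPRC5 family, had 503 and 505 CPM in lone males, against 31.7, 82.1, 74.1 and 106 CPM in social sand males (log2 fold change 2.78 ± 0.42 (SE), edgeR adjusted p = 0.0023). All 6 genes were called whichever library was left out.

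**Figure D4:**
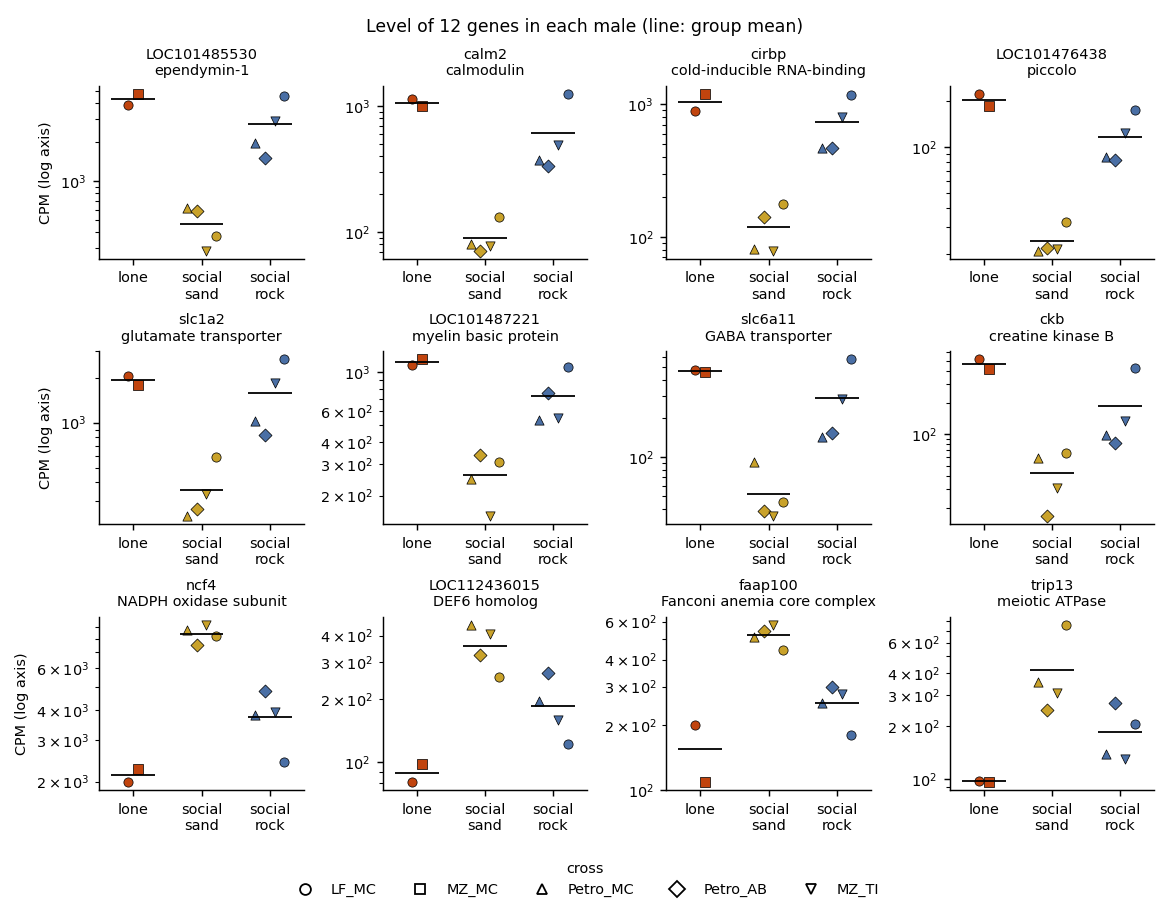
CPM of 12 genes (y axis, log scale, 1 panel a gene) in lone, social sand and social rock males (x axis), with 1 symbol for each male, shaped by cross, and a line at the group mean. In all 12 panels the lone and social sand males do not overlap, with lone males higher in the first 8 and lower in the last 4.

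Genes of the presynaptic terminal, which load, dock, release and recycle transmitter vesicles, were mostly called higher in lone males. Of 22 genes for SNARE proteins, calcium sensors and release sites, all 22 were tested and 17 were called higher, none lower (median log2 fold change 1.94, beside 2.45 over all named genes and 0.07 over all genes tested). In all 22 both lone males lay above every social sand male, beside 27.1% of all genes tested. That share is no measure for a list of named genes, and all 7 genes of vesicle endocytosis lay so too. Piccolo (LOC101476438), a scaffold of the release site, had 224 and 185 CPM in lone males, against 21.1, 21.9, 21.8 and 32.7 CPM in social sand males (log2 fold change 3.05 ± 0.42 (SE), edgeR adjusted p = 0.00149). LOC101482480, an unc-13 homolog of the family that readies vesicles for release, had 200.1 and 213 CPM in lone males, against 38.7, 21.9, 26.1 and 40.9 CPM in social sand males (log2 fold change 2.66 ± 0.48 (SE), edgeR adjusted p = 0.00469). The groups lay well apart in both genes, and the highest social sand male was the LF_MC one in both. At 6, 4, 5 and 8 counts in social sand males, piccolo cannot pass the filter without the lone or social rock libraries. The vesicle SNARE VAMP2 (LOC101474029) had 625 and 353 CPM in lone males, against 130.1, 126, 78.4 and 98.2 CPM in social sand males (log2 fold change 2.17 ± 0.39 (SE), edgeR adjusted p = 0.00469), and its call was lost without the LF_MC lone male (edgeR adjusted p = 0.086). Beta-synuclein (sncb), a small protein of nerve terminals, had 673 and 647 CPM in lone males, against 239, 214, 131 and 147 CPM in social sand males (log2 fold change 1.85 ± 0.34 (SE), edgeR adjusted p = 0.0048).

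Genes of vesicle recycling and filling were also higher. All 7 genes of vesicle endocytosis were called higher (median 2.64), among them dynamin-3 (LOC101463593), a GTPase that pinches vesicles off the membrane, with 364 and 270.3 CPM in lone males, against 95.0, 49.3, 47.9 and 45.0 CPM in social sand males (log2 fold change 2.39 ± 0.43 (SE), edgeR adjusted p = 0.00457). Endophilin-A1 (LOC101482997), which bends the membrane at that step, had 185 and 272 CPM in lone males, against 45.7, 0, 34.8 and 61.4 CPM in social sand males (log2 fold change 2.63 ± 0.56 (SE), edgeR adjusted p = 0.0108), and was not called without the MZ_MC lone male (edgeR adjusted p = 0.101). Of 8 genes of the proton pump and vesicle transporters, 6 were tested and 5 were called higher (median 2.66). The vesicular amino acid transporter slc6a17 had 227 and 158 CPM in lone males, against 31.7, 27.4, 26.1 and 28.6 CPM in social sand males (log2 fold change 2.74 ± 0.38 (SE), edgeR adjusted p = 0.00149). The proton pump, which acidifies vesicles so that they can fill, was represented by its subunit atp6v1a, with 515 and 311 CPM in lone males, against 49.2, 43.8, 56.6 and 36.8 CPM in social sand males (log2 fold change 3.13 ± 0.63 (SE), edgeR adjusted p = 0.00818). Without the LF_MC lone male 4, 2 and 3 genes of the release, endocytosis and pump lists were called higher, without the MZ_MC lone male 7, 1 and 3, without the MZ_TI social sand male 10, 5 and 5, and without the Petro_MC social sand male 12, 4 and 5.

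Some named genes of the receiving side of the synapse were called higher in lone males too, beside 60.0% of all named genes tested (median 2.45). Glutamate is the main excitatory transmitter and GABA the main inhibitory one. Of 8 glutamate receptor genes 6 were called higher (median 2.69). The AMPA receptor subunit gria2 had 600.3 and 475 CPM in lone males, against 73.9, 76.6, 109 and 266 CPM in social sand males (log2 fold change 2.02 ± 0.45 (SE), edgeR adjusted p = 0.0138), and was not called without the LF_MC or the MZ_MC lone male (edgeR adjusted p = 0.107 and 0.0534). Another AMPA-type receptor gene, LOC101486280, had 364 and 153 CPM in lone males, against 63.3, 93.1, 52.3 and 16.4 CPM in social sand males (log2 fold change 2.21 ± 0.51 (SE), edgeR adjusted p = 0.0152), and the higher LF_MC lone male decided its call (edgeR adjusted p without it = 0.244). Of 11 genes of postsynaptic scaffolds and synaptic adhesion 7 were called higher (median 2.18). In all 11 both lone males lay above every social sand male, beside 27.1% of all genes tested. Since the members are named genes, this is no result about the list. The scaffold gene LOC101469939, a homolog of CASK, had 151 and 187 CPM in lone males, against 24.6, 60.2, 30.5 and 57.3 CPM in social sand males (log2 fold change 1.99 ± 0.44 (SE), edgeR adjusted p = 0.0123), and its call was lost when either lone male was left out (edgeR adjusted p = 0.0523 and 0.112).

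All 4 genes of GABA transport, breakdown and receptors were called higher (median 2.60). The GABA transporter slc6a11, which clears GABA into astrocytes, had 476 and 458 CPM in lone males, against 91.4, 38.3, 34.8 and 45.0 CPM in social sand males (log2 fold change 3.12 ± 0.50 (SE), edgeR adjusted p = 0.00308). The lone males were close together and the highest social sand male was far below them. LOC101464081, a GABA receptor beta-2 subunit gene, had 344 and 341 CPM in lone males, against 98.5, 82.1, 61.0 and 115 CPM in social sand males (log2 fold change 1.93 ± 0.35 (SE), edgeR adjusted p = 0.00444). A second gene for that subunit, LOC101465541, had 28 and 18 counts in lone males and 0 counts in all 4 social sand males. With social sand males set at 3 counts over the group, the fold was at least 16.4. Such a gene can pass the filter only through the lone or social rock libraries, so no direction is read from it, though it is among the 4 called. The GABA-degrading enzyme abat had 161 and 76.6 CPM in lone males, against 28.1, 27.4, 26.1 and 28.6 CPM in social sand males (log2 fold change 2.09 ± 0.49 (SE), edgeR adjusted p = 0.0162), and was not called without the LF_MC lone male (edgeR adjusted p = 0.242). Without the LF_MC lone male 0, 1 and 3 genes of the glutamate, scaffold and GABA lists were called higher, without the MZ_MC lone male 1, 0 and 4, without the MZ_TI social sand male 5, 2 and 4, and without the Petro_MC social sand male 5, 3 and 4. Of 3 genes tied to acetylcholine only 1 was tested and it was not called.

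Genes of intracellular signalling were called higher at shares near or above that of all named genes. Calcium entering a neuron acts through calmodulin and its relatives, and of 19 genes of calmodulin, calcineurin and calcium handling 18 were tested and 14 called higher (median 2.29). Visinin-like protein 1 (LOC101471140), a neuronal calcium sensor, had 837 and 805 CPM in lone males, against 123, 208, 126 and 159.6 CPM in social sand males (log2 fold change 2.42 ± 0.41 (SE), edgeR adjusted p = 0.00343). Of 18 genes of G proteins, cAMP and protein kinase A 15 were tested and 9 called higher (median 2.48), close to the share and median of all named genes. The kinase's regulatory subunit prkar1b had 161 and 109 CPM in lone males, against 17.6, 10.9, 17.4 and 16.4 CPM in social sand males (log2 fold change 3.06 ± 0.58 (SE), edgeR adjusted p = 0.00591). LOC101486294, an inhibitory G protein alpha subunit, had 61.0 and 85.1 CPM in lone males, against 3.52, 0, 8.71 and 8.18 CPM in social sand males (log2 fold change 3.72 ± 0.74 (SE), edgeR adjusted p = 0.00818), and was not called without the MZ_MC lone male (edgeR adjusted p = 0.0722). In social sand males prkar1b had 5, 2, 4 and 4 counts and LOC101486294 had 1, 0, 2 and 2. Both can pass the filter only through the lone or social rock libraries, so their calls are not independent of the filter. The family of 14-3-3 proteins binds phosphorylated partners, and all 7 of its genes were called higher (median 2.27). The epsilon form LOC101470309 had 298 and 292 CPM in lone males, against 35.2, 60.2, 21.8 and 53.2 CPM in social sand males (log2 fold change 2.80 ± 0.43 (SE), edgeR adjusted p = 0.00265). These genes are close copies, and reads may be shared among them.

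The sodium pump and ion channels keep and use the membrane potential, and 7 of 10 tested genes were called higher (median 2.00). In all 10 both lone males lay above every social sand male, beside 27.1% of all genes tested. Since the members are named genes, this is no result about the list. The pump's alpha-1 subunit LOC101476311 had 617 and 347 CPM in lone males, against 123, 76.6, 87.1 and 159.6 CPM in social sand males (log2 fold change 2.10 ± 0.45 (SE), edgeR adjusted p = 0.0108), and was not called without the LF_MC lone male (edgeR adjusted p = 0.142). The pump regulator FXYD6 (LOC101475906) had 134 and 143 CPM in lone males, against 35.2, 10.9, 8.71 and 24.6 CPM in social sand males (log2 fold change 2.73 ± 0.53 (SE), edgeR adjusted p = 0.00659). Without the LF_MC lone male 5, 2, 3 and 1 genes of the calcium, G protein, 14-3-3 and channel lists were called higher, without the MZ_MC lone male 5, 2, 4 and 2, and without the MZ_TI social sand male 10, 6, 6 and 4. The Petro_MC social sand male also bore on the G protein list, with 6 called without it.

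Some named glial genes were called higher along with neuronal ones. Over all named genes tested 60.0% were called higher, with a median of 2.45, so the lists below are not shown to stand apart. Astrocytes take up glutamate and myelinating glia wrap axons. Of 10 astrocyte markers 9 were tested and 6 called higher (median 2.35), and of 5 myelin markers 4 were called higher (median 2.54). The astrocyte glutamate transporter slc1a2 had 2064 and 1779.6 CPM in lone males, against 236, 263, 335 and 585 CPM in social sand males (log2 fold change 2.43 ± 0.41 (SE), edgeR adjusted p = 0.00342). Clusterin (clu), a secreted chaperone, had 578 and 643 CPM in lone males, against 106, 142, 39.2 and 81.8 CPM in social sand males (log2 fold change 2.73 ± 0.44 (SE), edgeR adjusted p = 0.00299). Myelin basic protein (LOC101487221) had 1098 and 1181 CPM in lone males, against 249.7, 339, 152 and 311 CPM in social sand males (log2 fold change 2.12 ± 0.33 (SE), edgeR adjusted p = 0.00265). Myelin protein zero (mpz), which in fish is also a protein of central myelin, had 1366 and 2005 CPM in lone males, against 443, 405, 283 and 561 CPM in social sand males (log2 fold change 1.99 ± 0.34 (SE), edgeR adjusted p = 0.00343), and was not called without the MZ_MC lone male (edgeR adjusted p = 0.0517). In whole-brain RNA, fewer cells of a type and less RNA per cell cannot be told apart.

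The summed level of 6 neuron markers was 3438 and 4214 CPM in lone males and between 868 and 1526 CPM in social sand males. For 8 markers of astrocytes and radial glia the sums were 4449 and 4619 CPM in lone males, against 879.9 to 1404 CPM, and for 4 markers of myelinating glia 2555 and 3285 CPM, against 444 to 879.9 CPM in social sand males. The sum of 4 leukocyte markers went the other way, at 176 and 219 CPM in lone males and between 499 and 721 CPM in social sand males. Only 2 of the 4 were tested, both were called lower, and most of the sum is theirs. The sum thus does not show the direction of the untested markers. In the wider list of immune and leukocyte genes, 4 of 7 tested were higher in both lone males than in all social sand males and 3 were lower. Over all genes tested these shares were 27.1% and 15.6%. Of the markers, 5 of 6, 8 of 8, 3 of 4 and 2 of 4 had counts in all 6 males, in the order given, and 5, 6, 3 and 0 were called higher and 0, 0, 0 and 2 lower. The 1 endothelial marker was too low to test, with 19.5 and 21.3 CPM in lone males and 0 to 4.36 CPM in social sand males. All of these markers come from the study's own list of genes. The part of cell type makeup in the other results was not tested.

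Genes of secreted neuropeptides and amyloid precursors completed the neuronal groups. Granins are packed with neuropeptides into dense-core vesicles, and all 6 tested genes of granins and neuropeptide processing were called higher (median 1.94). Several of them differed between the lone males. Secretogranin II (scg2) had 276 and 664 CPM in lone males, against 106, 87.6, 69.7 and 69.6 CPM in social sand males (log2 fold change 2.49 ± 0.42 (SE), edgeR adjusted p = 0.00342), and was not called without the higher MZ_MC lone male (edgeR adjusted p = 0.089). Chromogranin A (chga) had 327 and 641 CPM in lone males, against 197, 169.7, 148 and 119 CPM in social sand males (log2 fold change 1.61 ± 0.35 (SE), edgeR adjusted p = 0.0123), and likewise depended on the MZ_MC lone male (edgeR adjusted p without it = 0.22). The peptide-processing enzyme cpe stood higher in the LF_MC lone male, with 354 and 213 CPM in lone males, against 49.2, 76.6, 82.8 and 102 CPM in social sand males (log2 fold change 1.87 ± 0.39 (SE), edgeR adjusted p = 0.0103), and was not called without that male (edgeR adjusted p = 0.157). Of 6 genes of the amyloid precursor family, membrane proteins of the neuronal surface and their partners, 5 were called higher (median 2.20). The gene app had 678 and 688 CPM in lone males, against 98.5, 159, 78.4 and 159.6 CPM in social sand males (log2 fold change 2.47 ± 0.46 (SE), edgeR adjusted p = 0.00565), and LOC101478308, a second amyloid precursor gene, had 708 and 675 CPM in lone males, against 137, 208, 95.8 and 110.5 CPM in social sand males (log2 fold change 2.33 ± 0.40 (SE), edgeR adjusted p = 0.0035). Without the LF_MC lone male 4, 2, 3 and 3 genes of the astrocyte, myelin, granin and amyloid lists were called higher, and without the MZ_MC lone male 4, 1, 1 and 3.

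The cytoskeleton of neurons, the tracks and fibres along which cargo moves, was represented by genes nearly all higher in lone males. Of 18 genes of microtubules, neurofilament and motors 17 were called higher (median 2.29). The tubulin LOC101480422 had 417 and 458 CPM in lone males, against 106, 115, 65.3 and 85.9 CPM in social sand males (log2 fold change 2.23 ± 0.34 (SE), edgeR adjusted p = 0.00259). Tau (LOC101463783), which binds axonal microtubules, had 266 and 277 CPM in lone males, against 59.8, 60.2, 17.4 and 28.6 CPM in social sand males (log2 fold change 2.70 ± 0.47 (SE), edgeR adjusted p = 0.0035). The dynein regulator LOC101473999, a homolog of lissencephaly-1, had 232 and 168 CPM in lone males, against 14.1, 16.4, 17.4 and 32.7 CPM in social sand males (log2 fold change 3.29 ± 0.57 (SE), edgeR adjusted p = 0.00363). Each of these 3 calls held whichever library was left out. Of 8 actin genes 6 were tested and 5 called higher (median 2.35). Cofilin (cfl1), which severs actin filaments, had 295 and 234 CPM in lone males, against 42.2, 32.8, 17.4 and 40.9 CPM in social sand males (log2 fold change 2.96 ± 0.43 (SE), edgeR adjusted p = 0.00203). Thymosin beta 4 (tmsb4x), which holds actin monomers in reserve, had 1354 and 1105 CPM in lone males, against 285, 334, 205 and 131 CPM in social sand males (log2 fold change 2.37 ± 0.43 (SE), edgeR adjusted p = 0.00469). Of 13 axon guidance genes 11 were tested and 7 called higher (median 2.59), and of 10 protocadherins and cadherins, adhesion proteins of neurons, 9 were tested and 7 called higher (median 2.83). The protocadherin LOC105940793 had 527 and 634 CPM in lone males, against 52.8, 164, 87.1 and 77.8 CPM in social sand males (log2 fold change 2.63 ± 0.50 (SE), edgeR adjusted p = 0.00567). Without the LF_MC lone male 5, 2, 1 and 2 genes of the microtubule, actin, guidance and cadherin lists were called higher, without the MZ_MC lone male 7, 3, 1 and 2, without the MZ_TI social sand male 10, 4, 3 and 2, and without the Petro_MC social sand male 12, 5, 4 and 2.

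Genes that most cells use, of energy metabolism, protein folding and translation, were also among those called higher in lone males. Of 18 genes of glycolysis and mitochondrial energy 16 were tested and 12 called higher (median 3.05). Creatine kinase B (ckb), the brain's energy buffer, had 517 and 417 CPM in lone males, against 59.8, 16.4, 30.5 and 65.5 CPM in social sand males (log2 fold change 3.39 ± 0.58 (SE), edgeR adjusted p = 0.00343). Hexokinase-1 (LOC101482510), the first enzyme of glycolysis, had 190.3 and 183 CPM in lone males, against 35.2, 16.4, 4.36 and 8.18 CPM in social sand males (log2 fold change 3.47 ± 0.59 (SE), edgeR adjusted p = 0.00343). LOC101474979, a subunit of respiratory complex III, had 134 and 151 CPM in lone males, against 7.03, 10.9, 21.8 and 0 CPM in social sand males (log2 fold change 3.84 ± 0.71 (SE), edgeR adjusted p = 0.00513). In these 3 genes the lone males lay close together and each social sand male was far below. In social sand males hexokinase-1 had 10, 3, 1 and 2 counts and LOC101474979 had 2, 2, 5 and 0. Neither can pass the filter without the lone or social rock libraries, so their calls are not independent of the filter. Of 20 chaperones, which fold other proteins, 14 were tested and 7 called higher (median 2.57), a lower share than among all named genes. With DESeq2 13 of these chaperones and 15 of the energy genes were called higher, so the lower share moved with the tool. The heat shock protein hsp90ab1 had 1266 and 1228 CPM in lone males, against 260.3, 235, 100.2 and 258 CPM in social sand males (log2 fold change 2.54 ± 0.40 (SE), edgeR adjusted p = 0.00265). Of 18 genes of the ribosome and translation 16 were tested and 15 called higher (median 2.35), such as rps9 with 122 and 155 CPM in lone males, against 7.03, 21.9, 8.71 and 24.6 CPM in social sand males (log2 fold change 3.17 ± 0.54 (SE), edgeR adjusted p = 0.00348). At 2, 4, 2 and 6 counts in social sand males, rps9 too cannot pass the filter without the lone or social rock libraries.

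RNA-binding and splicing genes gave 16 called higher of 23 tested and 26 listed (median 2.61). In all 23 both lone males lay above every social sand male, beside 27.1% of all genes tested. Since the members are named genes, this is no result about the list. Staufen (stau1), which carries mRNA along neurites, had 229 and 198 CPM in lone males, against 21.1, 27.4, 26.1 and 20.5 CPM in social sand males (log2 fold change 3.16 ± 0.50 (SE), edgeR adjusted p = 0.00265). LOC101474427, a phospholipase C eta-1 gene, had 16 and 27 counts in lone males and 0 in social sand males. With social sand males set at 3 counts over the group, the fold was at least 15.3. In all, 16 genes called higher had no count in any social sand male, and 1 gene called lower had none in a lone male. A gene with no count in a group can pass the filter only through the other groups. Both lone libraries were also deeper than every social sand library, so no direction is read from these counts. The lysosomal protein tmem106b had 144 and 106 CPM in lone males, against 0, 0, 0 and 8.18 CPM in social sand males, or 109 and 2 counts in all, a ratio of 58.3 (95% exact interval from 15.8 to 487, counting error only). At 2 social sand counts, tmem106b too can pass the filter only through the other groups, so no direction is read from its ratio. Without the LF_MC lone male 3, 4, 7 and 8 genes of the energy, chaperone, translation and RNA-binding lists were called higher, without the MZ_MC lone male 5, 4, 5 and 4, and without the MZ_TI social sand male 8, 5, 10 and 10.

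**Figure D5:**
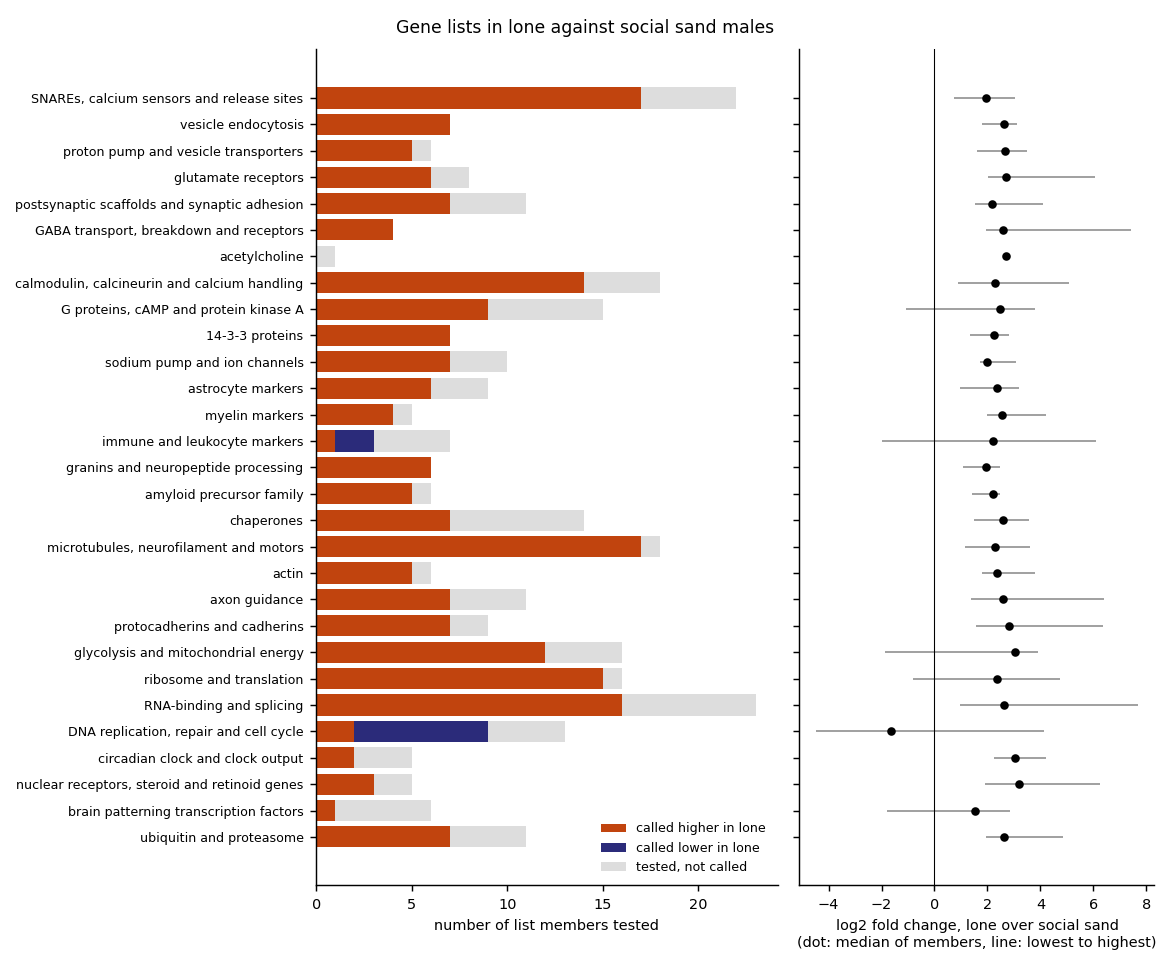
Left, the number of tested members of each of the 29 gene lists (y axis) that were called higher, called lower or not called in lone males. Right, the median log2 fold change between lone and social sand males (dot) with the lowest and highest member (line). Members at 0 counts in all social sand males enter at their fitted value, which is no bound. DNA replication, repair and cell cycle is the list with a median below zero, at -1.65.

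The remaining lists were short or rested on few libraries. Of 14 genes of ubiquitin and proteasome 11 were tested and 7 called higher (median 2.62), but 1 when either lone male was left out and 4 without the MZ_TI social sand male. For the circadian clock 2 of 5 genes were called higher (median 3.04), 1 without the LF_MC lone male 1 without the LF_MC social sand male, and 0 without the MZ_MC lone or the MZ_TI social sand male. The clock-controlled enzyme nampt had 17.1 and 72.4 CPM in lone males, against 0, 0, 0 and 8.18 CPM in social sand males, with 41 and 2 counts in all and a ratio of 21.9 (95% exact interval from 5.70 to 187). Its 2 lone values lay far apart. Social sand males held 2 counts, so nampt can pass the filter only through the other groups, and no direction is read from its ratio. Of 7 nuclear receptor, steroid and retinoid genes 5 were tested and 3 called higher, and the median was 3.17, or 2.90 with the gene at 0 counts set at its bound. The membrane progestin receptor LOC101467345 had 105 and 129.9 CPM in lone males, against 3.52, 0, 26.1 and 20.5 CPM in social sand males (log2 fold change 3.17 ± 0.64 (SE), edgeR adjusted p = 0.00852), and was not called without the MZ_MC lone male (edgeR adjusted p = 0.0671), and 1 gene of this list was called when either lone male was left out. Of 8 brain patterning transcription factors 6 were tested and 1, zic1, was called higher, with 264 and 175 CPM in lone males, against 91.4, 82.1, 82.8 and 32.7 CPM in social sand males (log2 fold change 1.60 ± 0.46 (SE), edgeR adjusted p = 0.0399). None of the list was called without any 1 library other than the LF_MC social sand male, and without that male 2 other members were. The zic1 call was lost whichever library was left out, with edgeR adjusted p up to 0.277.

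Of the 118 genes lower in lone males, 90 had no name, and ncf4 had the smallest p of the 28 named ones. The ncf4 locus is named for a subunit of the NADPH oxidase of phagocytes and was abundant throughout, with 1989 and 2263 CPM in lone males, against 8708, 7549.7, 9152 and 8181 CPM in social sand males (log2 fold change -1.98 ± 0.28 (SE), edgeR adjusted p = 0.00157). Both lone males lay far below every social sand male. The call was lost without the LF_MC lone male (edgeR adjusted p = 0.0578). Genes that copy and repair DNA formed the list with the most genes lower, 7 of 13 tested and 14 listed, with 2 higher (median -1.65). Called lower were 28 of all 647 named genes tested and 1.53% of all genes tested. The members were chosen with earlier results of these data known, so the direction of this list is no independent result. The Fanconi anemia core complex member faap100, which serves repair of crosslinked DNA, had 200.1 and 109 CPM in lone males, against 510.0, 542, 579 and 442 CPM in social sand males (log2 fold change -1.75 ± 0.35 (SE), edgeR adjusted p = 0.00844), and was not called without the MZ_MC lone male (edgeR adjusted p = 0.136). The ATPase trip13, which acts in meiosis and at the mitotic checkpoint, had 97.6 and 95.8 CPM in lone males, against 355, 246, 309 and 757 CPM in social sand males (log2 fold change -2.11 ± 0.48 (SE), edgeR adjusted p = 0.0139). The meiotic break gene mei1 had 4.88 and 6.39 CPM in lone males, against 56.3, 32.8, 56.6 and 94.1 CPM in social sand males (log2 fold change -3.35 ± 0.70 (SE), edgeR adjusted p = 0.0103). Neither was called without the LF_MC lone male (edgeR adjusted p = 0.123 for trip13 and 0.119 for mei1) or without the MZ_MC lone male (0.118 and 0.0961). At 4.88 and 6.39 CPM in lone males, mei1 can pass the filter only through the other groups, so no direction is read from its fold. Of fancb, another Fanconi anemia gene, lone males had 1 count and social sand males 30, a ratio of 28.0 in favour of social sand males (95% exact interval from 4.66 to 1144). At 1 lone count, fancb can pass the filter only through the other groups, so no direction is read from its ratio. The replication factor subunit rfc1 had 256 and 275 CPM in lone males, against 426, 405, 418 and 528 CPM in social sand males and was not called (log2 fold change -0.74 ± 0.32 (SE), edgeR adjusted p = 0.134). Of this list, 1 and 0 genes were called lower without the LF_MC and the MZ_MC lone male, and 3 without the MZ_TI social sand male. The 2 higher members fell to 0 when either lone male was left out and to 1 without the Petro_AB, MZ_TI or LF_MC social sand male. With libraries scaled by their totals alone 5 were called lower and 2 higher.

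Other named genes lower in lone males were picked as examples after their values were seen, and no list of their kind was tested. Transcription factor IIIA (LOC101483560), which serves the 5S ribosomal RNA genes, had 39.0 and 51.1 CPM in lone males, against 123, 203, 209 and 233 CPM in social sand males (log2 fold change -2.08 ± 0.42 (SE), edgeR adjusted p = 0.00824). The RNA polymerase II subunit polr2d had 58.6 and 40.4 CPM in lone males, against 141, 241, 231 and 201 CPM in social sand males (log2 fold change -2.03 ± 0.41 (SE), edgeR adjusted p = 0.00844). Cyclin H (ccnh), part of the kinase that starts RNA polymerase II, had 80.5 and 55.3 CPM in lone males, against 246, 378, 418 and 233 CPM in social sand males (log2 fold change -2.23 ± 0.49 (SE), edgeR adjusted p = 0.0123). In each the lone males lay below all social sand males, and each call was lost when either lone male was left out, with edgeR adjusted p between 0.0643 and 0.135. LOC101478856, named for an aspartate beta-hydroxylase domain, had 595 and 705 CPM in lone males, against 1529.9, 1965, 1847 and 1629 CPM in social sand males (log2 fold change -1.42 ± 0.28 (SE), edgeR adjusted p = 0.00781). The palmitoyltransferase zdhhc6 had 134 and 102 CPM in lone males, against 327, 394, 392 and 323 CPM in social sand males (log2 fold change -1.60 ± 0.36 (SE), edgeR adjusted p = 0.0132). Neither of these was called without the LF_MC lone male (edgeR adjusted p = 0.166 for LOC101478856 and 0.112 for zdhhc6) or without the MZ_MC lone male (0.0643 and 0.15).

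Immune and leukocyte genes were split. Of 11 listed, 7 were tested, 2 were called lower and 1 higher, and the list's median of 2.22 is the value of a member that was not called. With libraries scaled by their totals alone 3 were called higher and 2 lower. LOC112436015, a homolog of DEF6, a signalling protein of lymphocytes, had 80.5 and 97.9 CPM in lone males, against 450.2, 323, 405 and 254 CPM in social sand males (log2 fold change -2.00 ± 0.40 (SE), edgeR adjusted p = 0.00824). A perforin-1-like gene, LOC101487954, of the family that lyses target cells, had 65.9 and 85.1 CPM in lone males, against 267, 208, 183 and 246 CPM in social sand males (log2 fold change -1.58 ± 0.36 (SE), edgeR adjusted p = 0.0139). Lone males were lower than every social sand male in both. Neither was called without the LF_MC lone male (edgeR adjusted p = 0.126 for LOC112436015 and 0.2 for LOC101487954) or without the MZ_MC lone male (0.0667 and 0.0956). No member was called higher with any 1 library left out, and none was called lower when either lone male was left out.

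An abundant gene with a small difference was LOC101475135, a phospholipase C eta-2 gene, with 2828 and 3581 CPM in lone males, against 535, 2064, 3354 and 3679 CPM in social sand males (log2 fold change 0.41 ± 0.46 (SE), edgeR adjusted p = 0.55). Its groups overlapped, since the LF_MC social sand male lay above both lone males, and the Petro_MC social sand male was far below the rest. Among the named genes tested, it was the only one that met the rule for abundant genes of small change.

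Levels in social rock males, the brothers of the social sand males, are set beside those of lone males for 3 genes. Ependymin-1 (LOC101485530) had 3865 and 4739 CPM in lone males and 1955, 1516, 2886 and 4574 CPM in the Petro_MC, Petro_AB, MZ_TI and LF_MC social rock males. For calm2 the values were 1132 and 1007 CPM in lone males and 376, 338, 495 and 1261 CPM in social rock males. In both genes the highest social rock male was the LF_MC one. For ncf4 they were 1989 and 2263 CPM in lone males and 3797, 4802, 3942 and 2427 CPM in social rock males, the LF_MC male being the lowest. Over the 29 lists the median log2 difference of lone from social rock males ran from -0.40 to 0.74, and that of lone from social sand males from -1.65 to 3.17. Both comparisons use the same lone libraries. The 3 genes and all list members were selected by the study for a difference between social sand and social rock males. The wider range against social sand males is thus in part set by that selection, and no likeness of lone to social rock males is read from it.

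Cross was not balanced between the groups, since both lone males had a Mchenga conophoros dam and 2 of 4 social sand males did. With the Petro_MC and LF_MC social sand males alone as the other side, 155 of 8223 genes were called, 140 higher and 15 lower in lone males, and 140 of the 155 were among the 656. With cross as a block, the MZ_MC lone male drops out and the LF_MC lone male alone is compared. Far fewer genes were called then, and not all of them were among the 656.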

How the data were processed

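Whole-brain mRNA was sequenced from stranded TruSeq libraries, 1 male a library. The authors removed reads of low mean quality and trimmed them with the NGS QC Toolkit, aligned the rest by TopHat 2.0.9 to the Metriaclima zebra assembly MZ_UMD2a, handled alignments in SAMtools 0.19, and counted in HTSeq 0.6.1, depositing unnormalized fragment counts by locus. Besides these, edgeR 3.6.8 stands in the submitters' processing notes. Which annotation was used, whether strand was used in counting, and how reads of several alignments were treated is not given in the sources used here. Overlapping, antisense and near-identical genes are therefore uncertain. Groups came from the sample titles.

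The filter was filterByExpr at 10 counts. Some printed genes, stau1 and LOC101473999 among them, held too few social sand counts to pass it without the lone or social rock libraries. Calls of such genes are not independent of the filter. TMM factors and the quasi-likelihood test came from edgeR 4.0.16 in R 4.3.3, with all 3 groups in 1 fit, so that social rock males add to the estimate of spread. P-values were adjusted by Benjamini-Hochberg over 7733 genes. Log2 CPM used a prior count of 2. Limma 3.58.1, DESeq2 1.42.0, other scalings, filters, subsets and thinning were alternatives. Figures used matplotlib 3.10.9. With totals of 206320 to 457974 counts, a gene near 10 counts carries a large counting error. The fit was tested on simulated data, where it missed most changes of 2-fold and 4-fold, so a gene not called may still differ. Libraries are separate males, some of them brothers, and the main fit treats all as independent. Its p-values set the difference between groups against the spread between males within groups.

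Names came from the study's gene table, and some named genes are not reported here. The 29 lists, their members and the tests were chosen with earlier results of these data known. The rule named the 12 called genes of smallest p and the 5 of largest fold (mean log2 CPM of at least 3) in each direction, up to 4 genes of smallest p a list, up to 3 called genes at 0 counts in a group, up to 6 most abundant genes with an absolute log2 fold change under 0.5, and LOC101485530, calm2, calm3, LOC101482160, ncf4 and rfc1. Values known, the printed examples were taken from among these. A fold against a group at 0 counts is a bound with 3 counts set for the whole group. Exact intervals cover counting error only.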

Additional observations from a re-analysis of the deposited data

Results flagged for a closer look

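Of 97 measures compared, 8 had a social sand male whose gap to the nearest of the other 3 exceeded Dixon's 95% critical value, and chance alone flags about 1 in 20. The LF_MC social sand male was the highest for calm2 (131 CPM), piccolo (LOC101476438, 32.7 CPM), tmem106b (8.18 CPM, or 2 counts), nampt (8.18 CPM) and rfc1 (528 CPM), and the lowest for zic1 (32.7 CPM). The Petro_MC social sand male was the highest for dynamin-3 (LOC101463593, 95.0 CPM). The MZ_TI social sand male was the lowest for hsp90ab1 (100.2 CPM). In every one of these genes both lone males still lay on the same side of all 4 social sand males, as they did in every called gene.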

How the results depend on the processing

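The 656 calls between lone and social sand males became 308 with limma-voom, 296 with all libraries thinned to the smallest total, 155 against the 2 social sand males with a Mchenga conophoros dam, 240 without the 3 LF_MC males and 49 with cross as a replicate block. Leaving out 1 library gave 133 to 647 calls, and any other alternative (2 scalings, 2 filters, DESeq2, 6 libraries alone, no fold threshold) 624 to 940. The 2391.5 more loci detected at equal depth became 2034 to 2749 with a library left out. No direction turned for the 91 genes followed under any alternative that tested them, and all 656 called genes kept theirs wherever tested. The called genes had no overlap between the groups, so refits of the same libraries could hardly turn their direction. Calls were lost most often with the block (61 of 91 genes) and against social sand males with a Mchenga conophoros dam (31). Fits with fewer libraries have fewer samples, and with 1 social sand male left out the calls ran from 337 to 647 by male. What caused the lost calls was not tested. Cross labels pair males of 1 brood, but lone and social sand males share only the LF_MC brood, so the block leaves 1 lone male. The filter left 7733 of 32455 loci to test with all 10 libraries, the deeper social rock ones among them. With the 6 lone and social sand libraries alone, of 206320 to 457974 counts, it left 5527. No exact test on 2 against 4 libraries can fall below 0.0667.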
